A study of Mus musculus with 6 samples.

Results

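Thromboxane A2 is a short-lived lipid that platelets make from arachidonic acid and that activates neighbouring platelets. The cytosolic phospholipase A2 frees arachidonic acid from membranes, cyclooxygenase 1 turns it into prostaglandin H2, and thromboxane A synthase turns that into thromboxane A2, which acts on the thromboxane receptor. Prostacyclin, a product of vessel walls, opposes it through a receptor of its own, and lipoxygenases carry arachidonic acid into a separate branch of products. The 8 genes of this platelet eicosanoid pathway examined here were Pla2g4a, Ptgs1, Tbxas1, Tbxa2r, Ptgir, Alox12, Alox5 and Alox5ap. They were chosen by name, with earlier results of these data known. The shares of all genes given below are therefore context and not a test of the set. Every probe whose RefSeq accession maps to a member was taken, 14 probes in all. The 8 genes are among 18211 genes tested, and all 14 probes were well above background on all 6 arrays.

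Expression was measured in primary megakaryocytes, the cells that form platelets, cultured from the livers of E13.5 mouse fetuses. Fetuses of one group carried a knockout of p45 (p45-/-), which is the large NF-E2 subunit and the product of the gene Nfe2. NF-E2 is a transcription factor needed for platelet formation, and the other group was wild type (WT). Both groups were on the C57BL/6 strain, with 3 samples each from independent experiments per the series' design text, and the labels name no culture agent. Cultured megakaryocytes are named in the source field of the labels, but whole embryos in their extraction protocol, and the sources used here do not settle which applies.

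The labels and arrays were checked first. Nfe2 had log2 levels of 4.87, 6.43 and 6.34 in p45-/- samples 1, 2 and 3 against 5.24, 6.57 and 6.33 in the WT samples, so its groups overlapped (difference -0.17, SE 0.57, limma adjusted p = 0.923). The sources used here do not say whether its probe lies in the deleted part, so the genotype is not checked by this level, and p45-/- means the arrays with that label. All 14 megakaryocyte markers tested were well above background on all 6 arrays. The 75th percentile of the signal lay between 135 and 589 over the arrays, lowest on p45-/- array 1. That array correlated across genes with the others at 0.782 to 0.884, against 0.941 to 0.984 among the other arrays. Every level below is a log2 signal minus the 75th percentile of its array, so 0 is the level of that percentile and a difference of 1 is a doubling of the ratio. Differences are p45-/- minus WT.

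Thromboxane A synthase mRNA was far lower in the p45-/- cultures, while the transcripts for the steps before and after it differed much less. Tbxas1 was 17.6-fold lower in group mean and Alox5ap, which helps 5-lipoxygenase to use arachidonic acid, 2.98-fold lower. Those were the members whose groups did not overlap, 2 of 8, both lower, a pattern shown by 8.44% of all genes tested. The other 6 members had differences between -1.04 and -0.13, and each had overlapping groups. No member passed limma's test at an adjusted p of 0.05, and neither did any gene (0%, smallest adjusted p 0.0877). At an unadjusted p under 0.05 there were 2 members, both lower, beside 3.33% of all genes that were lower at that level. At least 2-fold lower were 3 members, Tbxas1, Alox5ap and Ptgir, and 3.68% of all genes, and at least 4-fold lower was Tbxas1 alone among the members, and 0.604% of all genes. With the replicate number as a block, a fit that compares same-numbered samples, 5 genes (0.0275%) passed and none was a member. At an unadjusted p under 0.05 in that fit there were 4 members, Tbxas1, Alox5ap, Ptgs1 and Ptgir, all lower, where 20.3% of all genes had such a p and 5.96% were lower with it.

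**Figure D1:**
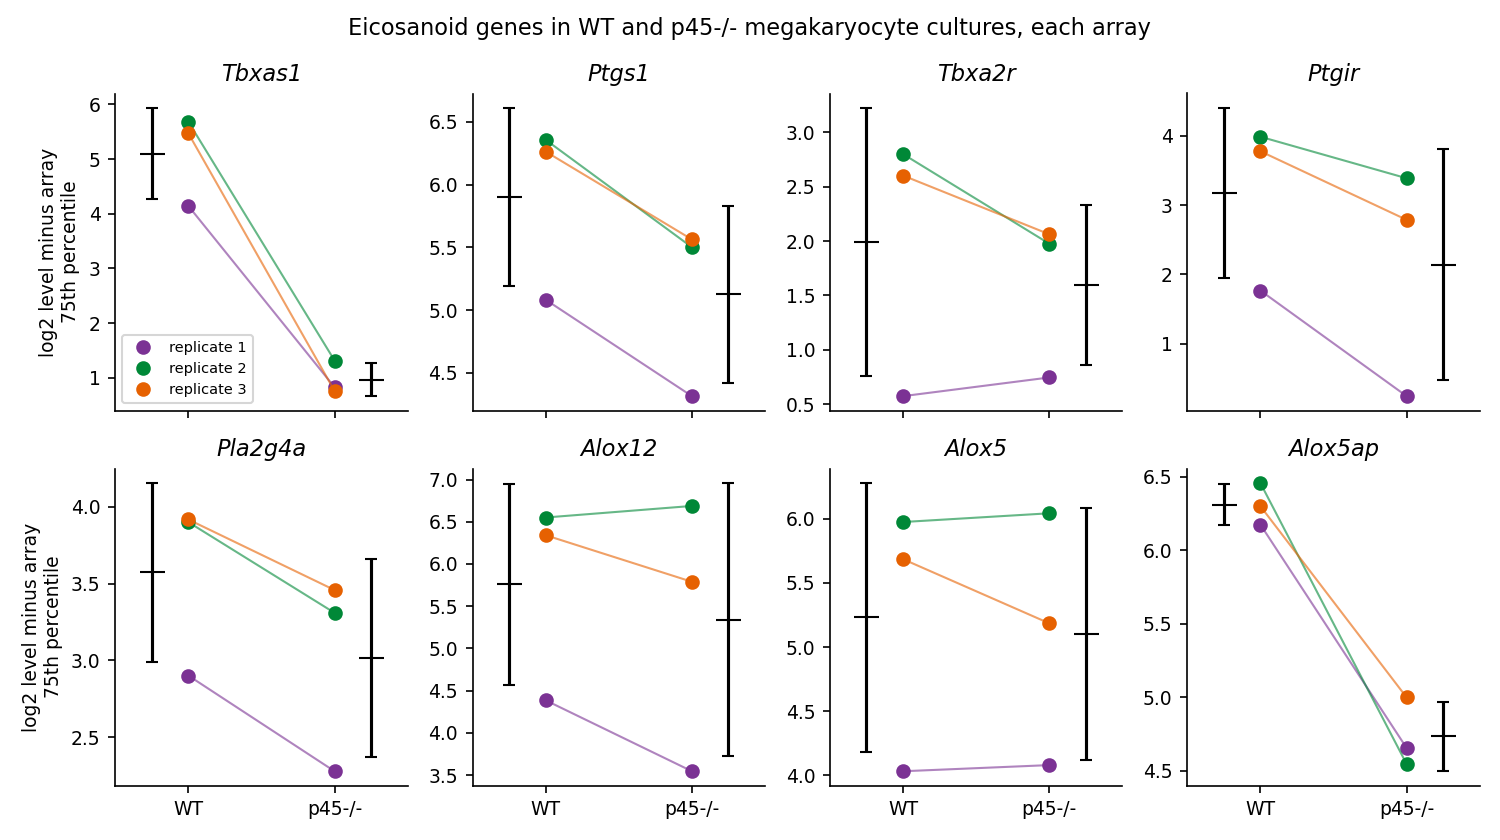
Log2 level of each gene, relative to the 75th percentile of its array, on the 3 WT and 3 p45-/- arrays (y axes differ between panels and do not start at 0). Coloured points are arrays, lines join samples with the same replicate number, and black bars give the group mean and SD (n = 3). The groups of Tbxas1 and Alox5ap do not overlap, and in the other 6 panels replicate 1 is the lowest array of its group.

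The first step of the pathway is the release of arachidonic acid by the cytosolic phospholipase A2 that Pla2g4a encodes. Its brighter probe read 2.28, 3.31 and 3.46 in p45-/- replicates 1, 2 and 3 and 2.90, 3.90 and 3.92 in those of WT, the order used for every gene below. Both replicate 1 arrays were low, and the groups overlapped because the WT value of replicate 1 lay below the p45-/- values of replicates 2 and 3. The group means were 3.02 ± 0.64 (SD, n = 3) and 3.57 ± 0.58 (SD, n = 3), a difference of -0.56 (SE 0.46, limma adjusted p = 0.720). The second probe gave -0.61, and its arrays, at 0.84, 1.75 and 1.95 against 1.42, 2.50 and 2.47, lay in a like order. Within same-numbered samples the difference was -0.62, -0.59 and -0.46, so the p45-/- array was the lower one each time. Without p45-/- replicate 1 the group difference was -0.19.

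Ptgs1 encodes cyclooxygenase 1, the constitutive enzyme of platelets and the one that low-dose aspirin blocks there. Its single probe read 4.32, 5.50 and 5.56 in p45-/- and 5.08, 6.36 and 6.26 in WT. The groups overlapped through WT array 1, which lay below p45-/- arrays 2 and 3. The difference was -0.77 (SE 0.52, limma adjusted p = 0.704), with a 95% interval from -2.01 to 0.46. Within same-numbered samples it was nearly constant, at -0.77, -0.86 and -0.70, while the group difference was -0.37 without p45-/- replicate 1. With the replicate block the interval ran from -1.46 to -0.09 and the limma adjusted p was 0.199, so this gene did not pass there either.

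Tbxas1 encodes thromboxane A synthase, a cytochrome P450 enzyme that makes thromboxane A2 and is also found in macrophages. NF-E2 has been described earlier as a regulator of this gene in megakaryocytes. Its brighter probe read 0.83, 1.32 and 0.76 in p45-/- and 4.15, 5.69 and 5.47 in WT. The highest p45-/- value thus lay far below the lowest WT value, and the p45-/- arrays, array 1 included, lay close together. In processed signal, before any scaling between arrays, these were 240.3, 1014 and 998 against 6002, 30049 and 25562. The group means were 0.97 ± 0.30 (SD, n = 3) and 5.10 ± 0.84 (SD, n = 3). The difference of -4.13 (SE 0.47, 95% interval -5.27 to -3.00) puts the gene at rank 9 of 18211 from the lowest.

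The second Tbxas1 probe gave nearly the same picture. It read 0.61, 1.20 and 0.76 in p45-/- and 4.10, 5.68 and 5.53 in WT, a difference of -4.25. Within same-numbered samples the brighter probe differed by -3.32, -4.37 and -4.71, so the gap was smallest for replicate 1, where the WT level was lowest. The limma adjusted p was 0.206 without the block and 0.0512 with it. By exact permutation of the arrays, two-sided, p was 0.1, and 3 arrays against 3 cannot give a smaller one. When each of the 23958 kept probes was tested on its own with the block, a setting chosen after seeing the data in which 73 probes (0.305%) passed, both Tbxas1 probes had a limma adjusted p of 0.0389. By scan date the 6 arrays fell into 2 sets, called slides here, that each held both groups. The Tbxas1 difference was -3.84 within slide 2 and -4.71 within slide 1, which held 1 array of each group.

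The promoter of Tbxas1 is shown because it holds a match to a pattern used here for the recognition sequence of NF-E2. That of Ptgs1, the enzyme just upstream, is shown for comparison. The windows are from RefSeq (GRCm38.p6), 250 bases before to 50 after the annotated start, 5′ to 3′, with the match in capitals. The Tbxas1 window is chr6:38918736-38919035 and the Ptgs1 window chr2:36230176-36230475, both on the plus strand.
Tbxas1: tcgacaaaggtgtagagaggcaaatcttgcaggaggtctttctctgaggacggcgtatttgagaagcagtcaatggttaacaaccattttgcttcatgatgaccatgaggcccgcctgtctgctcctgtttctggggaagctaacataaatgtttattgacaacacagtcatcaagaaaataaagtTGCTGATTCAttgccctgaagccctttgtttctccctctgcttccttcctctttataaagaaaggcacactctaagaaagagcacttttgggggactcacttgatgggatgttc
Ptgs1: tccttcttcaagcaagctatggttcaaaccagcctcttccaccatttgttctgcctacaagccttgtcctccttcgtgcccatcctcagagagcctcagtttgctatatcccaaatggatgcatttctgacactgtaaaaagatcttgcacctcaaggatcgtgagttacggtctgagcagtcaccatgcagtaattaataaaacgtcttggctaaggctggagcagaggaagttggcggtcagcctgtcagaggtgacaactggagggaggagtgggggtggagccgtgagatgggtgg
The motifs searched on both strands were a core NF-E2 pattern, TGANTCA, and an extended pattern. In the extended pattern TGC stands directly before the core, so that every extended match also holds the core. N stands for any base, so both patterns are loose, and forms with a fixed base there were not searched. In Tbxas1 the extended pattern was found as TGCTGATTCA, with T in the place of N, from 64 to 55 bases before the start. RefSeq windows were found for 7 of the 8 members, 9 windows in all, and the Tbxas1 window was the 1 of the 9 with a match to the extended or the core motif. Of all 32851 promoter windows of the same length, 0.423% held the extended motif and 7.81% the core. The GATA motif was searched only as AGATAA, which 11.2% of all windows held and none of the 9 did (0 windows). Other forms of the GATA motif were not searched, so a GATA site in these windows is not excluded. These matches describe letters in the windows and do not show binding.

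A ratio of 2 genes on the same array does not depend on the scaling between arrays. The log2 ratio of Tbxas1 to Ptgs1 differed by -3.36 in group mean, with array values of -3.49, -4.18 and -4.80 in p45-/- and -0.94, -0.67 and -0.79 in WT. Only the change between groups is meaningful there, since 2 probes differ in brightness for reasons of their own. Of the 7 ratios of Tbxas1 to another member, all 7 were lower without overlap, with differences from -4.01 against Alox5 to -2.56 against Alox5ap. The Tbxas1 transcript therefore differed between groups by more than that of each other member measured on the same arrays. Alox5ap was lower without overlap relative to 1 of the other 7 members, Pla2g4a (difference -1.02), its ratio groups overlapped for 5, and relative to Tbxas1 it was higher.

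At the end of this route stand the receptors. Tbxa2r encodes the thromboxane receptor, which couples to Gq and G13 and drives platelet shape change and secretion. Its single probe read 0.75, 1.98 and 2.06 in p45-/- and 0.58, 2.80 and 2.60 in WT. The replicate 1 arrays were low in both groups and the p45-/- one was the higher of that pair. The difference was -0.40 (SE 0.69, limma adjusted p = 0.851), with a 95% interval from -2.06 to 1.26 that holds no change and also a fall or rise of more than 2-fold. Without p45-/- replicate 1 or WT replicate 2 it was 0.027 and 0.0064, so its direction rests on single arrays.

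Ptgir encodes the prostacyclin receptor, which raises cyclic AMP and holds platelets back. Its brighter probe read 0.24, 3.39 and 2.79 in p45-/- and 1.77, 3.99 and 3.78 in WT. The p45-/- group was widely spread, with array 1 more than 2 units below the other arrays of its group. The difference was -1.04 (SE 0.97, limma adjusted p = 0.733), and -0.09 without p45-/- replicate 1. Within same-numbered samples it was -1.53, -0.60 and -0.99, and the block gave a limma adjusted p of 0.152. The second probe was dim, between -3.78 and -2.75, and disagreed for replicate 1, where it was 0.93 higher in p45-/-, against -0.82 and -0.76 for replicates 2 and 3.

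**Figure D2:**
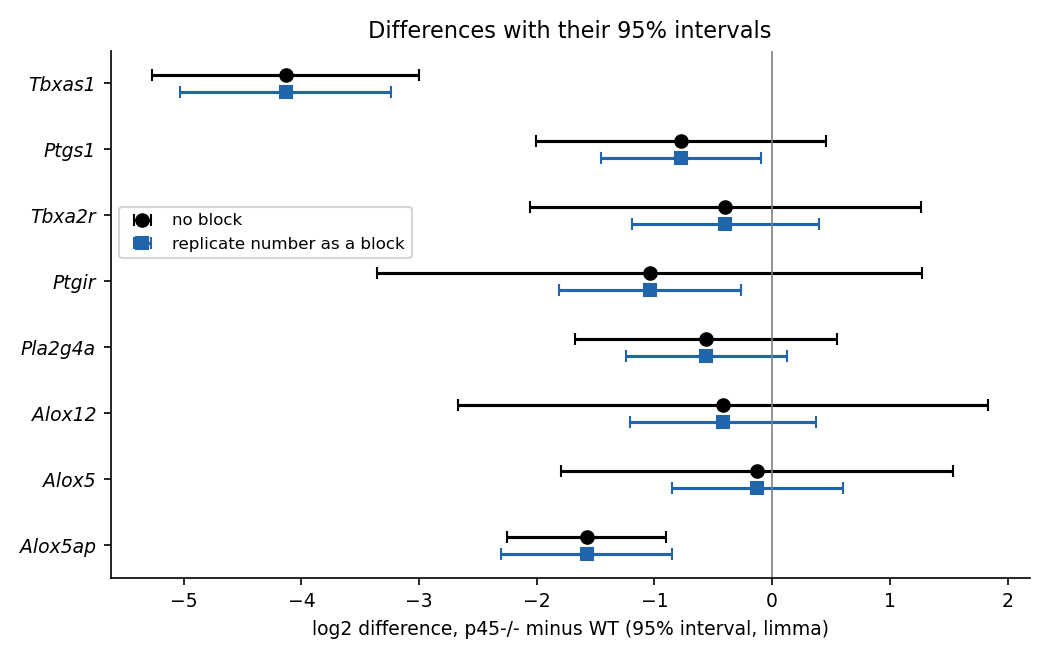
Log2 difference, p45-/- minus WT, of each gene with its 95% interval from limma, without a block (circles) and with the replicate number as a block (squares). The intervals of Tbxas1 and Alox5ap lie below 0 in both fits, those of Ptgs1 and Ptgir only with the block, and no gene passed after adjustment over 18211 genes.

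The lipoxygenase branch had 3 members. Alox12 encodes the platelet-type 12-lipoxygenase, the main lipoxygenase of platelets. Its brighter probe read 3.55, 6.69 and 5.79 in p45-/- and 4.39, 6.55 and 6.34 in WT. The groups overlapped, and p45-/- array 2 was the highest of all 6. The difference was -0.42 (SE 0.94, limma adjusted p = 0.883), with a 95% interval from -2.67 to 1.83, and it was 0.48 without p45-/- replicate 1. The second probe differed by -0.35, with -0.56, 0.055 and -0.54 within same-numbered samples, close to the -0.84, 0.14 and -0.55 of the brighter one.

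Alox5 encodes 5-lipoxygenase, the enzyme that starts leukotriene synthesis, known chiefly from neutrophils, macrophages and mast cells. Its brightest probe read 4.08, 6.04 and 5.19 in p45-/- and 4.03, 5.97 and 5.69 in WT. Same-numbered arrays lay close to each other for replicates 1 and 2, at 0.05 and 0.07, and apart by -0.50 for replicate 3. The difference was -0.13 (SE 0.69, limma adjusted p = 0.956), and the other probes gave -0.15 and 0.05. The block narrowed its interval to -0.86 to 0.60. Its sign turned in 7 of the 23 alternative settings, so no direction is given for it.

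Alox5ap encodes the 5-lipoxygenase activating protein, a membrane protein that presents arachidonic acid to 5-lipoxygenase. Its single probe read 4.66, 4.55 and 5.0 in p45-/- and 6.18, 6.46 and 6.30 in WT. The groups were tight and did not overlap, and here the replicate 1 arrays did not stand apart. The means were 4.73 ± 0.24 (SD, n = 3) and 6.31 ± 0.14 (SD, n = 3), a difference of -1.58 (SE 0.28, 95% interval -2.25 to -0.90). The limma adjusted p was 0.354, and 0.105 with the block. By exact permutation, two-sided, p was again 0.1. The difference was -1.72 within slide 2 and -1.30 within slide 1, and -0.95 when levels were taken relative to the mean of the 14 megakaryocyte markers. RefSeq's promoter table holds no window under this name among those used here.

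**Figure D3:**
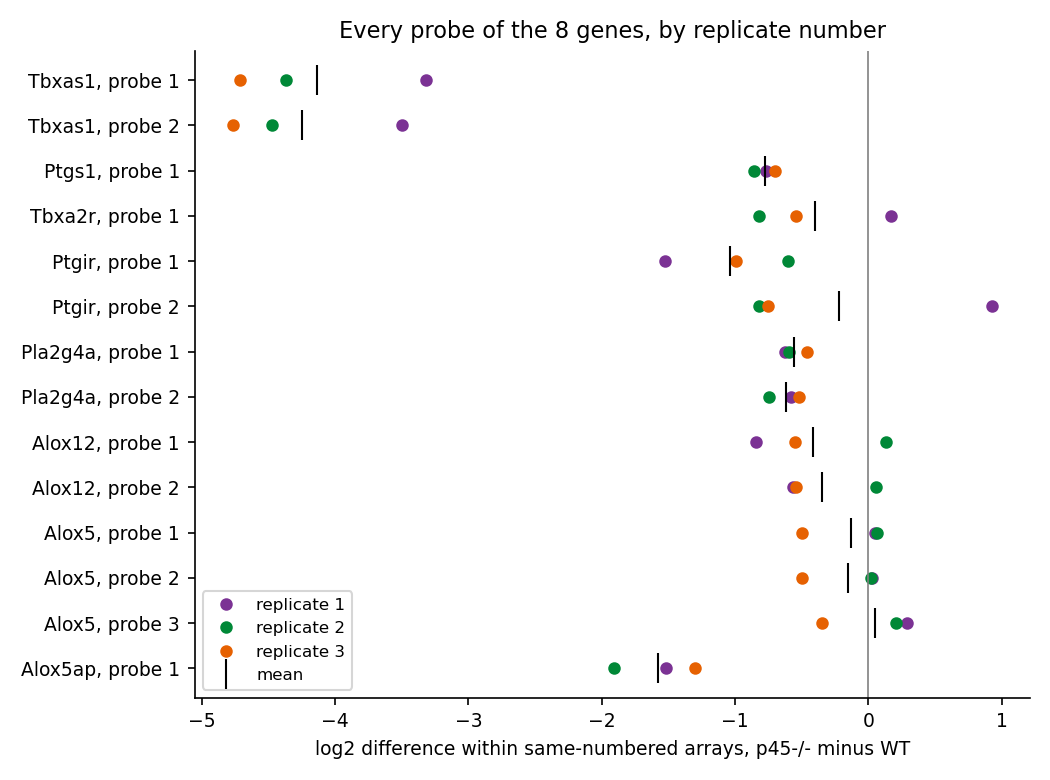
Log2 difference between same-numbered arrays, p45-/- minus WT, for each of the 14 probes (coloured points, one for each replicate number) with the mean (black tick). Probes are ordered by gene and, within a gene, from brightest to dimmest. Both Tbxas1 probes lie between -4.77 and -3.32, Alox5ap between -1.91 and -1.30, and the second Ptgir probe is split in sign.

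Across the pathway all 8 members had the lower group mean in p45-/-, and their median difference was -0.67 beside -0.05 for all genes tested, of which 53.5% were lower. That count was 7 with quantile normalization or with the percentile taken over probes detected on all arrays, where Alox5 turned. It was 5 without p45-/- replicate 1, where the members' median was -0.14 beside 0.07 for all genes, and 4 relative to the megakaryocyte markers. Lower in all 3 same-numbered pairs were 5 of the 8, Tbxas1, Ptgs1, Ptgir, Pla2g4a and Alox5ap, against 23.6% of all genes. The remaining members also shared a pattern over arrays: for 6 of the 8, all but Tbxas1 and Alox5ap, replicate 1 was the lowest array of both groups. The same held for 12 of 14 megakaryocyte markers and for 30.8% of all genes. Scaling by the median of each array in place of its 75th percentile moved the median of all genes to -0.56, and the percentile over detected probes moved it to 0.15. Relative to that shift Tbxas1, at -4.64 there, was again far lower.

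Markers of other cell types were read on the same arrays, because cultures from fetal liver can hold several blood lineages and several of these eicosanoid genes are used by myeloid cells. In bulk RNA, fewer cells of a type and less RNA per cell cannot be told apart. The median difference of 14 megakaryocyte markers was -0.48, with 12 of them lower, and their summed level ran from 974 to 2047 times the array's 75th percentile in p45-/- and from 1205 to 2092 in WT. Beside the Tbxas1 and Alox5ap values stand 13 macrophage and monocyte markers, 8 of them lower with a median of -0.07 (0.22 with quantile normalization) and summed levels of 297 to 394 in p45-/- and 257 to 902 in WT. The 11 neutrophil markers were all lower (median -0.81), 5 of them without overlap, as were 8.44% of all genes. Their summed levels overlapped, at 540.4 to 1048 in p45-/- and 708 to 1285 in WT. Such sums of linear signals follow the brightest marker, here S100a9, which differed by -0.003. No macrophage or neutrophil marker tested was below background on any array (0 of each). Of 8 mast cell and basophil markers 5 were lower (median -0.86, summed levels 4.83 to 17.8 against 13.1 to 31.2). All 12 erythroid markers tested, 9 of them well above background on all 6 arrays, were higher, with a median of 2.16 and summed levels of 168 to 1008 against 108 to 367. For 8 of them the groups did not overlap, where 4.78% of all genes were higher without overlap. The brightest erythroid marker, Hba-a1, differed by 0.56 with overlapping groups. All 7 hepatoblast markers were also higher, 2 without overlap, with a median of 1.19 and summed levels of 47.4 to 159 against 39.3 to 67.0. Of 11 stromal and endothelial markers 8 were higher, with a median of 0.41 (-0.10 with median scaling) and summed levels of 29.8 to 57.3 against 50.9 to 58.6. The part of these cell types in the differences of Tbxas1 and Alox5ap was not tested. Relative to the mean of the megakaryocyte markers on the same arrays, a list that is itself lower, Tbxas1 differed by -3.51. That setting was added after seeing the data.

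**Figure D4:**
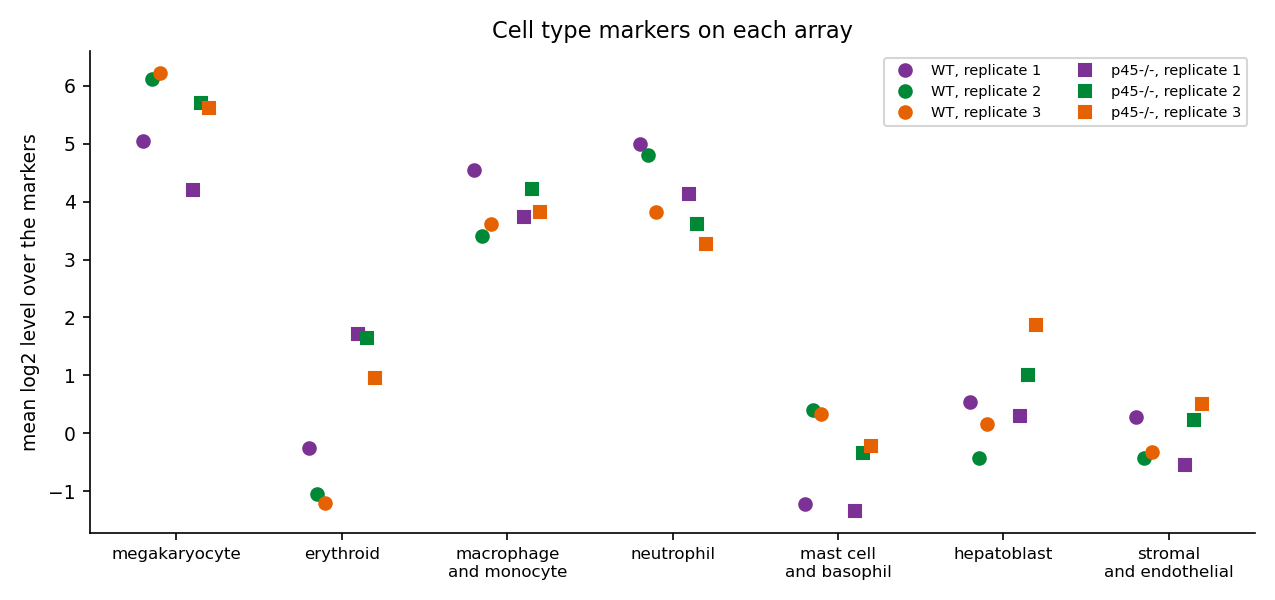
Mean log2 level, relative to the array's 75th percentile, of the tested markers of 7 cell types on each array (circles WT, squares p45-/-, colours replicate numbers). The erythroid means lie at 0.95 to 1.72 in p45-/- and -1.20 to -0.25 in WT, and the macrophage means overlap.

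The wider pathway was read from lists of 94 genes, of which 90 were on the array by name and 80 were tested. Of these 49 were lower and 31 higher, the median difference was -0.24, and 0 passed the test in either fit. The groups did not overlap for 14 lower and 2 higher genes, where 8.44% and 4.78% of all genes did so. At an unadjusted p under 0.05 there were 7, beside 5.95% of all genes. The median was -0.04 with the percentile over probes detected on all arrays and 0.38 relative to the megakaryocyte markers.

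Among other enzymes of prostanoid synthesis, 3 of 8 were lower, with a median of 0.11. Ptges, the inducible prostaglandin E synthase, had the smallest p, with a difference of -1.37 (SE 0.71) and overlapping groups. That value was -0.64 without WT replicate 1 and -0.28 with normexp background correction. Of the 4 other prostanoid receptors tested 2 were lower, and the groups did not overlap for Ptger4, a prostaglandin E2 receptor that raises cyclic AMP. Ptger4 read -2.91, -3.16 and -2.31 in p45-/- and -1.95, -1.50 and -1.46 in WT, a difference of -1.16 (SE 0.34, limma adjusted p = 0.655), or -0.31 with normexp. In prostanoid breakdown and transport 4 of 7 were lower. Ephx2, the soluble epoxide hydrolase that removes the epoxide products of arachidonic acid, was the highest of that list. It read 1.16, 2.51 and 2.56 in p45-/- and 0.89, -0.18 and 0.34 in WT, a difference of 1.73 (SE 0.50, limma adjusted p = 0.642), smallest for replicate 1. Cyp4f18, a cytochrome P450 of the family that hydroxylates leukotriene B4, differed by -0.53 without overlap.

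In the leukotriene branch the genes listed beside the members differed in both directions, with 5 of 7 in the list of enzymes lower. Among those 5 was Cotl1 (-0.17), which is not itself an enzyme. Ggt5, a gamma-glutamyl transferase that converts leukotriene C4 to D4, read -2.64, -2.61 and -3.17 in p45-/- and -1.74, -0.27 and -0.47 in WT. Its difference was -1.98 (SE 0.46, limma adjusted p = 0.475), and the groups did not overlap. With normexp background correction it was -0.997, and -2.70 within slide 1. Mgst2, a microsomal enzyme that can make leukotriene C4, differed by -1.15 without overlap, and by -0.58 within slide 1. Cysltr2, a receptor for cysteinyl leukotrienes, differed by -1.64 (SE 0.54) without overlap and by -0.62 with normexp, while 4 of the 6 receptors of its list were lower. The 4 other lipoxygenases tested were all higher, with a median of 0.28 that turned to -0.04 with quantile normalization and -0.23 with median scaling. The groups overlapped for all 4 of them, Alox12e with the smallest p at 0.36.

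Among 19 genes of arachidonate release and reacylation 11 were lower (median -0.18). Abhd6, a lipase that breaks down the arachidonate-bearing 2-arachidonoylglycerol, differed by 1.5 (SE 0.65) and Mboat7, which puts arachidonate back into phosphatidylinositol, by -1.02 (SE 0.46), both without overlap. Abhd6 differed by 0.81 without p45-/- replicate 1 and by 0.75 with normexp. Below the receptors, 18 of 22 G proteins and effectors were lower, with a median of -0.47, and 7 were lower without overlap, as were 8.44% of all genes. That median was -0.16 without p45-/- replicate 1, -0.24 with quantile normalization and 0.15 relative to the megakaryocyte markers. Vasp, an actin regulator phosphorylated when cyclic nucleotides rise, differed by -0.82 (SE 0.31), and by -0.51 within slide 1. Prdx6, which reduces lipid hydroperoxides, differed by -0.59 without overlap. In the fit without the block, the smallest limma adjusted p among all 80 genes was 0.475, and with the block it was 0.114.

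**Figure D5:**
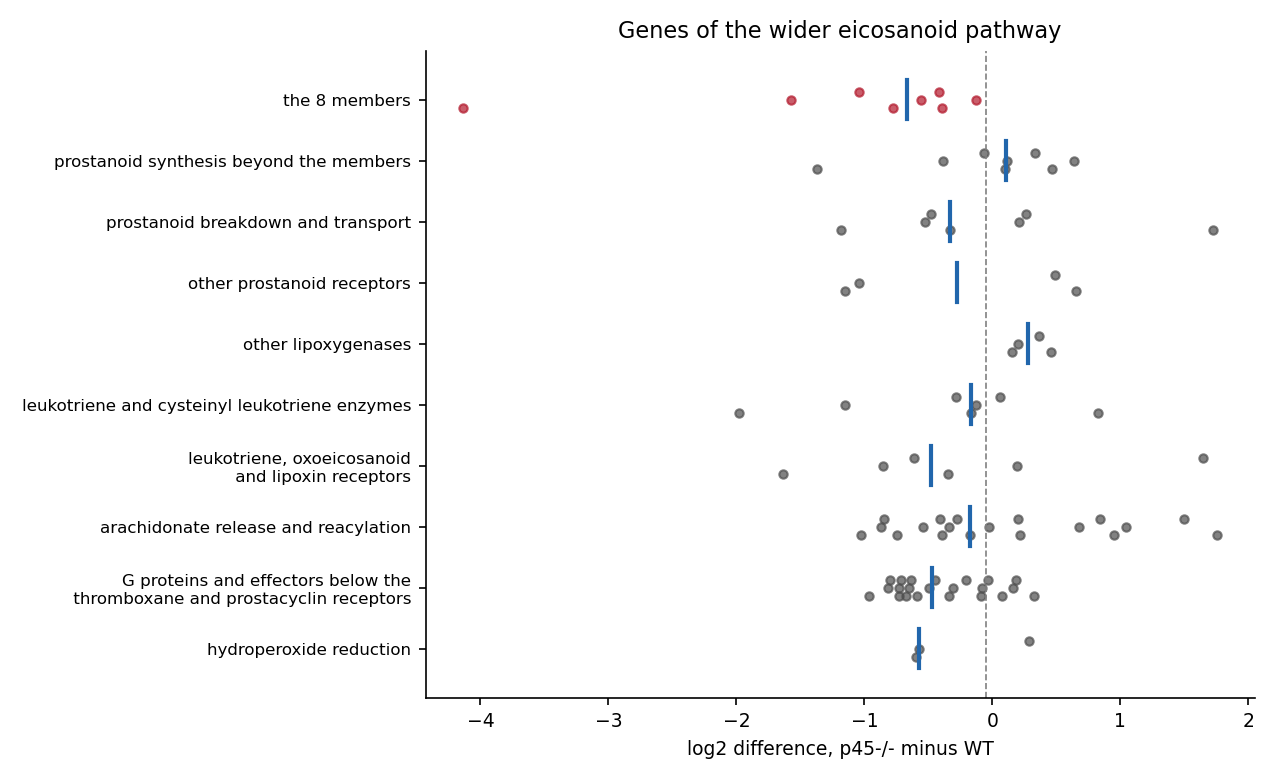
Log2 difference, p45-/- minus WT, of the 8 members (red) and of the tested genes in 9 lists of the wider pathway (grey points, spread vertically only to separate them), with each list's median (blue bar) and the median of all genes (dashed line). Tbxas1 at -4.13 lies apart from all 80 other points, the lowest of which is Ggt5 at -1.98.

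The profile of Tbxas1 over the 6 arrays was compared with those of the other 12947 tested genes that have a symbol. The most alike by Pearson correlation were Ttll11, Tmem131l, Glod5, Slc6a4 and Dclre1b, with r from 0.990 to 0.993, given as a description because the arrays fall into 2 separate groups. Slc6a4, the serotonin transporter of platelets, differed by -6.88 and Ttll11, a tubulin polyglutamylase, by -6.19, while Glod5, Tmem131l and Dclre1b differed by -2.97, -1.82 and -0.60. On 1 p45-/- array Ttll11 was not well above background. The gap between the 2 groups dominates these correlations, and the p45-/- arrays are not in the order of Tbxas1 in any of the 5.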

How the data were processed

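Single-colour Agilent arrays were hybridised with amplified, Cy3-labelled RNA, per the labels' protocols. The deposited processed intensity of each spot was, per the file headers, extracted with Agilent Feature Extraction 10.7.3.1 (10.1 per the submitters' processing notes), background-subtracted and detrended within an array, on a linear scale. The series' value table as deposited by the authors held the same intensities within 0.497%, linear and uncentred, with column medians of 20.9 to 42.0.

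From these, log2 values were taken, flagged spots (32 to 80 per array) set to missing, spots of a probe averaged and each array's 75th percentile subtracted. No spot was saturated. A probe entered the tests if every array of 1 group or of both held it well above background (23958 of 41174 probes). Names came from a RefSeq table (GRCm38.p6, used for names and promoters), which matched 26690 probes. A gene took its probe with the highest mean level, and 5 of the 8 members had more than 1 probe. The tests were limma's (version 3.58.1, lmFit and eBayes, R 4.3.3), two-sided, called at a Benjamini-Hochberg adjusted p of 0.05 over 18211 genes. The number of arrays limits the precision. The fit was checked on simulated data with large differences and the same small spread for every gene. That check does not show its power on these arrays.

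Same-numbered samples deviated together (0.647, 0.589 and 0.270 for numbers 1, 2 and 3), above the limit of 0.1 for each. The labels do not state a pairing, so the main fit had no block. The replicate block was an alternative that rests on these same data. Against this pairing, the WT sample closest to p45-/- number 3 was number 2 (0.616). This check cannot separate a shared experiment from outlying arrays. A slide here means the arrays that share a scan date in the file headers, so slide and scan are 1 batch.

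Members and lists were chosen with earlier results of these data known. The named genes outside the members were, per list, the 2 with the largest difference among those whose groups do not overlap, or the 1 with the smallest p, and the 5 most like Tbxas1. A gene that this rule names is not reported here. Normexp used the median signal, since the files hold no mean signal. The alternatives covered block, slide, background, scaling, filter, probe choice, array weights and left-out replicates.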

Additional observations from a re-analysis of the deposited data

How the results depend on the processing

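Tbxas1 was lower in all 23 alternative settings, from -4.71 to -3.51, as were Alox5ap (-2.09 to -0.95), Ptgs1 (-1.29 to -0.15) and Ptgir (-1.74 to -0.09). With the replicate block 5 genes were called and no member, and the block changed no other call. Every probe tested on its own with the block, added after seeing the data, called 73 probes and 1 member, Tbxas1 (-4.13, adjusted p = 0.0389). Median scaling called 10 genes and 1 member, Tbxas1 (-4.64, adjusted p = 0.0220), with a median of -0.75 for the other pathway genes and Alox12e at -0.15. With array weights (0.0979 for p45-/- array 1) the fit called 505 genes, the 2 members Tbxas1 (-4.40, adjusted p = 0.00421) and Alox5ap (-1.58, adjusted p = 0.0163), and 2 other pathway genes, Ephx2 (2.26) and Ggt5 (-2.37). Leaving out replicate 1 of both groups called 18 genes and 1 member, Tbxas1 (-4.54, adjusted p = 0.0476). Leaving out 1 array at a time, 0 to 1 genes were called (1 without WT replicate 1), and 5 to 8 members were lower. The adjusted p of Tbxas1 then lay between 0.0764 and 0.963, with a difference from -4.61 to -3.84. In those settings Tbxa2r ranged from -1.10 to 0.027, Alox12 from -1.11 to 0.48 and Alox5 from -0.73 to 0.38, turning without p45-/- replicate 1 (all 3: 0.027, 0.48 and 0.38), WT replicate 2 (Tbxa2r 0.0064, Alox5 0.24) or WT replicate 3 (Alox5 0.099). Alox5 was 0.20 with quantile normalization, 0.074 with the percentile over detected probes and 0.058 within slide 2, and Alox5ap moved to -1.30 within slide 1. Ggt5, Mgst2 and Vasp also moved within slide 1, to -2.70, -0.58 and -0.51. Relative to the megakaryocyte markers, added after seeing the data, 4 members were lower, the median of the other pathway genes was 0.38, and Tbxa2r, Pla2g4a, Alox12, Alox5, Cyp4f18 and Prdx6 turned to 0.23, 0.066, 0.21, 0.50, 0.096 and 0.030. That setting subtracts a list that is itself lower. For the other results that moved the cause was not tested. Normexp on the mean signal was not run, since the files hold the median signal. Among the other pathway genes named, normexp moved Ptges, Ptger4, Cysltr2, Ggt5 and Abhd6 by more than 1.5 times.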
